A study of Saccharomyces cerevisiae with 51 samples.

Results

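The strains described here are 14 deletion mutants of Mediator subunits. They are among the 6128 mutants listed in the counts of a pooled yeast knockout (YKO) screen for expression of a pFUS1-GFP reporter. They were taken from a fixed list of gene names, which was chosen with earlier results of these data known. They comprise 2 head, 3 middle, 5 tail, and 4 kinase module subunits. FUS1 is a gene induced by mating pheromone, so GFP in these cells reports on the mating pathway and on the transcription machinery that reads it out. In each strain of the library 1 gene is deleted and marked by 2 barcodes, the UPTAG and the DNTAG, whose reads count the strain's share of a pool of cells.

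All pools came from the MATa haploid library, and in all of them, controls included, the reporter with a LEU2 marker had been integrated at BAR1, which removes the Bar1 protease that degrades α-factor. Cultures either received no pheromone (uninduced, "Un") or were exposed to α-factor at 10 nM over 2 hr (induced, "In"). From either culture, cells below the GFP gate ("Gfp-") were sorted and regrown to saturation before their DNA was extracted, and the unsorted culture ("presort") served as reference. Each of these 4 pools had 3 biological replicates, which gives 12 libraries after the UPTAG and DNTAG reads were added up. Some features limit what a pool can show. A mutant is represented by its library strain alone, the sorted cells grew again before they were counted, and by the methods a small part of the transformants lacked the reporter at BAR1. The barcodes identify a strain by its tag only, and these counts cannot show whether the gene is missing in it. The share of a strain in a sorted pool is not a measure of its GFP level when grown alone. Flow cytometry of single strains was not analysed here. The study also tested strains one by one, that of SSN2 among them, and those results are not reported here.

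Mediator is the large complex that carries signals from DNA-bound activators and repressors to RNA polymerase II. Its head and middle modules contact the polymerase, its tail is the landing place for many activators, and its kinase module, formed by the kinase Cdk8, cyclin C, Med12, and Med13, binds reversibly and is best known in yeast for repression. Ste12, the activator of FUS1, and the mating MAP kinases that control it act upstream of this complex.

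The depth of the libraries was uneven. Presorted libraries held 547624 to 10467729 reads, and sorted libraries held 192483 to 13140634 reads, with replicate 3 the shallowest in the Un Gfp-, In presort, and In Gfp- pools. Replicate 1 was sequenced on a HiSeq 2000 and replicates 2 and 3 on a HiSeq 2500. The sorted libraries were dominated by few strains. Of the mutants tested, 94.2% had a lower share of reads in all 3 Un Gfp- libraries than in any Un presort library, and 94.4% did so in the induced pools. Log2 fold changes are therefore given after TMM scaling, which sets the bulk of the strains near 0, and shares of reads are given beside them. With TMM the median over all mutants tested was -0.55 uninduced and -0.69 induced. With total counts alone it was -5.32 and -6.17. Of the mutants called, 69.8% were higher uninduced and 60.1% induced with TMM, against 3.50% and 3.45% with total counts. DESeq2 gave 57.2% and 43.0%, and RLE size factors gave 77.6% and 47.2%.

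Most Mediator strains could hardly be seen before sorting. Of the 14 strains, 7 had no read in any of the 12 libraries, 3 had 1 read in the 6 presorted libraries together, and 4 had more than 3 reads. A count of 0 in the 26663662 presort reads allows a share of up to 1.13e-05%. This limit is 3 reads and covers counting error only, since the barcodes were amplified by PCR without molecular identifiers. Over all 6128 mutants, 29.5% had no presort read and 33.8% had at most 3, against 50.0% and 71.4% of the Mediator strains. The 6128 listed mutants include those of genes that yeast needs to live, which a haploid library cannot hold. The shares over all mutants therefore also count strains that could not be seen, and their number was not determined. Whether the unseen strains were in the pool at all was not tested.

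By module, the strains without a read were SRB2 (YHR041C, Med20) of the head, SOH1 (YGL127C, Med31) of the middle, MED2 (YDL005C) and PGD1 (YGL025C, Med3) of the tail, and SRB8 (YCR081W, Med12), SSN3 (YPL042C, the kinase Cdk8), and SSN8 (YNL025C, cyclin C) of the kinase module. The strains with 1 presort read were SRB5 (YGR104C, Med18), the partner of Srb2 in the head, and GAL11 (YOL051W, Med15), the tail subunit that many activators bind, each with a DNTAG read in Un presort replicate 3. SIN4 (YNL236W, Med16), a further tail subunit, had 1 DNTAG read in In presort replicate 2. None of these 3 had a read in a sorted library. The strains with more than 3 presort reads were SSN2 (YDR443C, Med13) of the kinase module, NUT1 (YGL151W, Med5) of the tail, and MED1 (YPR070W) and CSE2 (YNR010W, Med9) of the middle.

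The other 11 subunits of Mediator, most of which yeast needs to live, were also listed in the table. MED6 had 1 presort read and the remaining 10 had none. Among the subunits of SAGA and SWI/SNF, coactivators that also serve inducible genes, 12 of 23 strains had no presort read and 8 had more than 3. In the Paf1 complex, an elongation factor, 3 of 5 strains had more than 3, as did 6 of 8 strains of the mating MAP kinase cascade.

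A strain was tested where its presort replicates had a mean of at least 50 reads. SSN2 and NUT1 met this in every comparison, and 12 of the 14 strains did not. The kinase module was thus represented by SSN2 and the tail by NUT1, while the head and the middle had no strain to test. SSN2 was called higher in Un Gfp-, which makes 1 of 2 Mediator strains tested, where 12.2% of 3414 mutants were called higher and 5.27% lower (edgeR quasi-likelihood test, adjusted p below 0.05). It was also the member called in In Gfp-, where 15.2% of 3553 mutants were higher and 10.1% lower. With 2 strains tested, these counts carry no information on Mediator as a group.

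SSN2 encodes Med13, the subunit that ties the kinase module to the core of Mediator. The ssn2Δ strain was abundant before sorting, at rank 37 of the 4055 mutants with more than 3 presort reads. It had 10138, 1813, and 2815 reads in the 3 Un presort libraries, in the order of the replicates, and 142025, 35122, and 4054 reads in the Un Gfp- libraries. As shares of the reads of each library, these were 0.183%, 0.0995%, and 0.113% before sorting and 2.39%, 2.61%, and 2.11% after it. The groups did not overlap, and the shares of the sorted replicates lay close together although their depths differed widely. After TMM scaling the sorted replicates did not lie close together. The scaled counts of ssn2Δ were 221994, 206430, and 38533 in Un Gfp-, against 374, 197, and 211 in Un presort. The TMM factors of the Un Gfp- libraries were 0.108, 0.126, and 0.547. The closeness of the shares thus does not carry over to the TMM scale. A share that was higher in all 3 sorted libraries than in any presorted library was found in 3.72% of the mutants tested uninduced.

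The mean share of ssn2Δ rose from 0.132% ± 0.0449 (SD, n = 3) in Un presort to 2.37% ± 0.251 (SD, n = 3) in Un Gfp-, which is 18.0-fold. On the TMM scale the log2 fold change was 9.22 (SE 1.31, edgeR quasi-likelihood test, adjusted p = 0.000927), 9.77 above the median of all mutants tested. This was rank 14 of 3414. With total counts in place of TMM it was 4.16, and 9.48 above the median on that scale. Higher shares of ssn2Δ in 3 of 3 sorted libraries stood behind the call, but it was lost when replicate 1 was left out (log2 fold change 9.25, adjusted p = 0.144) and when replicate 2 was left out (8.79, adjusted p = 0.126). In these fits of 2 against 2 libraries edgeR called none of all the mutants tested, with 618 and 809 of them at an unadjusted p below 0.05. Over all alternatives the adjusted p ranged from 2.94e-35 to 0.144.

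With α-factor, ssn2Δ was again far more abundant after sorting. It had 22215, 7338, and 834 reads in the In presort libraries and 288568, 30962, and 6638 in the In Gfp- libraries. The shares were 0.212%, 0.127%, and 0.152% before sorting and 2.20%, 2.27%, and 2.19% after it. The sorted shares lay within a narrow band and far above every presort share. Such a separation was seen in 3.83% of the mutants tested. The narrow band did not hold after TMM scaling. The scaled counts of ssn2Δ were 258907, 219608, and 53010 in In Gfp-, against 334, 193, and 232 in In presort. The TMM factors of the In Gfp- libraries were 0.0849, 0.104, and 0.414.

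The mean share of the induced pools rose from 0.164% ± 0.0439 (SD, n = 3) to 2.22% ± 0.0471 (SD, n = 3), or 13.6-fold. The log2 fold change was 9.45 (SE 1.18, edgeR quasi-likelihood test, adjusted p = 1.45e-05), at rank 23 of 3553 and 10.1 above the median. With total counts it was 3.76, and 9.93 above the median. The call held under every alternative run, with adjusted p from 1.57e-42 to 0.0490. Within the sorted libraries themselves, ssn2Δ was among the 15 most abundant strains each time, at ranks 12 to 13 in Un Gfp- and 13 to 15 in In Gfp-.

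Both barcodes of ssn2Δ carried the difference. In the 6 sorted libraries the UPTAG gave 2.10% to 2.33% of the UPTAG reads and the DNTAG gave 2.03% to 2.64% of the DNTAG reads. In the 6 presorted libraries these were 0.101% to 0.209% and 0.0966% to 0.215%. The separation is therefore present in each tag on its own. With UPTAG reads alone the log2 fold change was 8.66 uninduced and 8.76 induced, and with DNTAG reads alone 9.46 and 8.89.

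The presort share of ssn2Δ, but not its sorted share, was set apart in replicate 1. Replicate 1, from the HiSeq 2000, had the highest presort share in both cultures. The enrichment was 13.1-fold in replicate 1 and 22.2-fold on the means of replicates 2 and 3 in the uninduced pools, and 10.3-fold and 16.0-fold in the induced pools. Replicate 1 is a single library per pool, so that these values have no test. It is also the only replicate from the HiSeq 2000, so that instrument and replicate cannot be told apart.

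The enrichments of ssn2Δ without and with α-factor were compared in a model of all 12 libraries. The difference of the log2 fold changes was 0.27 (SE 1.15, edgeR quasi-likelihood test, adjusted p = 0.964). Its sign turned with total counts (-0.41) and with DNTAG reads alone (-0.47). With total counts the median of all mutants was -0.67, and ssn2Δ lay 0.26 above it, against 0.21 with TMM. No Mediator strain was called in this comparison, and 0 of 2 had an unadjusted p below 0.05 in edgeR. Of all 3412 mutants tested, edgeR called 0%, with 342 at an unadjusted p below 0.05, and DESeq2 called 24 higher and 64 lower, none of them a Mediator strain.

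NUT1 encodes Med5, a subunit of the tail module. The nut1Δ strain was of middling abundance before sorting, at rank 1672 of 4055. It had 769, 318, and 413 reads in the Un presort libraries and 4, 1, and 4 reads in the Un Gfp- libraries. The shares were 0.0139%, 0.0174%, and 0.0166% before sorting and 6.74e-05%, 7.42e-05%, and 0.00208% after it. All sorted values were below all presort values, as in 94.2% of the mutants tested, and replicate 3 was far above the other sorted replicates.

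The mean share of nut1Δ was 0.0160% ± 0.00185 (SD, n = 3) before and 0.000740% ± 0.00116 (SD, n = 3) after sorting uninduced, 21.6-fold lower. This ratio differed between the replicates, at 206-fold lower in replicate 1 and 15.8-fold lower on the means of replicates 2 and 3. Without replicate 3 it was 221-fold lower. These ratios rest on 4, 1, and 4 sorted reads. The share in replicate 2 was below the limit of 3 reads in its library (0.000223%), and that in replicate 3 was near its limit (0.00156%). Counting error could thus not be set apart from a difference between replicates. On the TMM scale the log2 fold change was -1.47 (SE 0.678, edgeR quasi-likelihood test, adjusted p = 0.146), which is -0.93 relative to the median of all mutants. It was called lower with total counts (-6.44, adjusted p = 0.000634), where it lay -1.12 from the median, and with TMM when Un Gfp- replicate 3 was left out (-2.11, adjusted p = 0.0219).

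In the induced pools, nut1Δ had 1609, 1119, and 105 reads before sorting and 32, 0, and 4 reads after it. The shares were 0.0154%, 0.0193%, and 0.0192% before sorting and 0.000244%, 0%, and 0.00132% after it. The groups again did not overlap, as in 94.4% of the mutants tested. The count of 0 in In Gfp- replicate 2 allows a share of up to 0.000220%.

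The mean share was 0.0180% ± 0.00224 (SD, n = 3) before and 0.000521% ± 0.000703 (SD, n = 3) after sorting, 34.4-fold lower with the count of 0 taken as it is. With that count set to the limit of 3 reads, a value added after the data were seen, the mean share was 30.2-fold lower. The log2 fold change was -0.23 with TMM (SE 0.566, edgeR quasi-likelihood test, adjusted p = 0.755), which is 0.46 above the median of all mutants. With total counts it was -6.12 (adjusted p = 0.000145), 0.05 above the median of that scale. The direction on the TMM scale turned when In Gfp- replicate 2 was left out (0.26). Among all mutants tested, 21.0% had a lower log2 fold change than nut1Δ uninduced and 62.7% induced, so that its value stood within the bulk of the strains in both cultures. The difference of the log2 fold changes between the cultures was 1.29 (SE 0.922, adjusted p = 0.708 in edgeR), and -0.17 without replicate 1.

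The reads of ssn2Δ and nut1Δ can also be set against each other within a library, which needs no scaling. The ratio restates the shares above, and since nut1Δ stood within the bulk of the strains, it is a description of these strains and not of their modules. There were 9.84 ssn2Δ reads per nut1Δ read in Un presort (exact binomial 95% interval 9.33 to 10.4, counting error only) and 10.7 in In presort (10.3 to 11.2), with the reads of the replicates added up. In Un Gfp- there were 20133 (10606 to 44031) and in In Gfp- 9060 (6544 to 12936). By library the presort ratio was 13.2, 5.70, and 6.82 uninduced and 13.8, 6.56, and 7.94 induced, higher in replicate 1 of both cultures. The sorted ratio was 35506 in Un Gfp- replicate 1 and 1014 in replicate 3, both resting on 4 nut1Δ reads. Replicate 2, with 1 nut1Δ read, gave 35122 (6303 to 1387280). In Gfp- gave 9018 in replicate 1 and 1660 in replicate 3. In replicate 2, with 0 nut1Δ reads, the lower end of the exact interval was 8393. With the 0 reads set to 3 the ratio there was 10321. The presort and sorted ratios did not overlap in either culture. As 94.2% and 94.4% of the mutants tested had lower shares in all sorted libraries, nearly any of them in place of nut1Δ would part from ssn2Δ in this way.

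The middle module strains with reads were seen before sorting only. MED1, which encodes a subunit of this module with the same name, had 29, 5, and 6 reads in Un presort, 11, 17, and 4 in In presort, and 0 in all 6 sorted libraries. CSE2, which encodes Med9, had 18, 6, and 16 reads in Un presort, 44, 18, and 2 in In presort, and 0 in all 6 sorted libraries. Both strains were thus present in every presorted library and unseen in every sorted one. A lower share in all sorted libraries was also the rule among the mutants tested, at 94.2% uninduced and 94.4% induced. With 3 reads over the 3 libraries of a sorted pool as the limit, med1Δ was at least 10.1-fold lower in Un Gfp- and at least 9.39-fold lower in In Gfp- as a share of the pooled reads. For cse2Δ these bounds were 10.1-fold and 18.8-fold. With total counts, the median log2 fold change of the mutants tested was -5.32 uninduced and -6.17 induced. The median mutant thus fell further than any of these bounds, which do not set the 2 strains apart. The bounds rest on replicate 1, the deepest library of each pool. Without it, in a setting chosen after the data were seen, they dropped to 1.31-fold and 1.84-fold for med1Δ and to 2.62-fold and 1.75-fold for cse2Δ. Without the minimum of presort reads, neither strain was called by edgeR, with adjusted p of 0.509 for MED1 and 0.461 for CSE2 uninduced and 0.547 and 0.420 induced.

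Before sorting, the shares of ssn2Δ and nut1Δ overlapped between the induced and the uninduced cultures, and neither strain was called. The mean share of ssn2Δ was 1.24-fold higher in In presort than in Un presort (log2 fold change 0.32, SE 0.301, edgeR adjusted p = 1.00). That of nut1Δ was 1.12-fold higher (0.17, SE 0.135, edgeR adjusted p = 1.00). Of the 2 Mediator strains tested, edgeR called 0, and 0 had an unadjusted p below 0.05. Among all 3555 mutants edgeR called 0%, with 37 at an unadjusted p below 0.05, and DESeq2 called 0.

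The other lists give a scale for these values. All 6 strains of the mating MAP kinase cascade that could be tested were called higher, both uninduced and induced, with median log2 fold changes of 9.21 and 9.33, where all mutants tested had medians of -0.55 and -0.69. Of the SAGA and SWI/SNF strains, 3 were tested uninduced with none called and a median of -1.30. Induced, 5 were tested, of which 1 was called higher, with a median of -0.61. No strain of the Paf1 complex or of the other Mediator subunits could be tested. No test between these lists and ssn2Δ was made. A like log2 fold change in a pool does not show a like GFP level in strains grown alone.

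Strains deleted for genes next to a Mediator gene were counted as well. Within 2 systematic numbers of the 14 genes there were 59 further strains, of which 39 had presort reads. In Un Gfp-, 27 were tested, 4 called higher and 2 lower, where 12.2% and 5.27% of all mutants were called. In In Gfp-, 29 were tested, 3 called higher and 3 lower, against 15.2% and 10.1%. The neighbours as a group were close to these shares. The 4 neighbours of SSN2, on the right arm of chromosome IV by their systematic names, had 309 to 6156 presort reads and 1 to 44 reads in all sorted libraries. In Un Gfp- 3 of them were tested, without YDR445C, and in In Gfp- all 4. None of those tested was called.

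The neighbours called were as follows. The strain of YTP1, next to SIN4, had 766 presort and 4452 sorted reads and was called higher uninduced (log2 fold change 6.54, edgeR adjusted p = 0.000727) and induced (8.93, edgeR adjusted p = 1.18e-05). YNL234W, on the other side of SIN4, was called higher with 2.49 and 2.81. DOG2, near SRB2, had 12940 presort and 17366 sorted reads and was called higher with 5.95 and 6.42. The remaining calls rested on at most 44 sorted reads. YGL149W near NUT1 was higher uninduced and lower induced, PEX14 near NUT1 and YOL050C near GAL11 were lower uninduced, and SPE2 and AIM39 near GAL11 were lower induced.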

How the data were processed

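Bar-Seq libraries of sorted and presorted pools were analysed, from the table of raw counts per mutant and tag that the authors deposited without normalization. Reads had been matched to the library's barcode list by Bowtie2 (version not given in the sources used here) and counted in R. Of 48 columns, 24 could be matched to samples by name. The other 24 were not used, nor were the RNA-Seq and ChIP-Seq files. UPTAG and DNTAG counts were added up per replicate. Shares are percent of a library's summed counts.

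Mutants with a mean of at least 50 presort counts entered the quasi-likelihood test of edgeR 4.0.16 (R 4.3.3) after TMM scaling. p-values were adjusted by Benjamini and Hochberg's method over every mutant tested, with a threshold of 0.05. For the difference of the enrichments the mean had to be reached in both cultures, and for the presort comparison in at least 1. The study's methods name 50 reads and DESeq; DESeq2 1.42.0, RLE size factors, total counts, other minimums, each tag alone, a replicate block, and leaving out libraries were tried as alternatives. The scripts were tested on simulated data. Python 3.11.15, pandas 2.3.3, numpy 2.4.6, and scipy 1.17.1 were used for shares and intervals.

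All 14 members are named, other lists are given as counts and medians, and neighbours are named where called. Gene names came from a RefSeq table of the R64 assembly, which matched 5651 mutants and all 14 members. The members and lists were chosen with earlier results of these data known. Barcode sequences were not used here.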

Additional observations from a re-analysis of the deposited data

How the results depend on the processing

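The call of ssn2Δ in In Gfp- held under all 17 alternatives, and its direction did so in Un Gfp- as well, where the call was lost without replicate 1 or 2 of both pools. Leaving out replicates or single libraries gave 0 to 1 Mediator strains called higher and 0 to 1 called lower in Un Gfp-, a log2 fold change of ssn2Δ of 8.79 to 9.90, and one of nut1Δ of -2.11 to -0.66. In In Gfp- the nut1Δ value ranged from -0.92 to 0.26, reversing without replicate 2 (0.15) and without the sorted replicate 2 alone (0.26). Total counts made nut1Δ a lower call, so that 1 Mediator strain was called lower in either culture, at -6.44 and -6.12. For this setting the scaling itself moves the median of all mutants.

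The difference of the enrichments of ssn2Δ reversed with total counts (-0.41), with DNTAG reads (-0.47), and without Un presort replicate 1 (-0.07), Un Gfp- replicate 3 (-0.33), or In Gfp- replicate 1 (-0.34). Over the libraries left out it ranged from -0.34 to 0.59, and for nut1Δ from -0.17 to 2.05. The cause was not tested. None of these made a call, and the presort comparison made none under any setting.

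Over all mutants, 416 higher and 180 lower calls in Un Gfp- ranged from 0 to 575 and from 0 to 3199 over the alternatives, and 540 and 359 in In Gfp- from 119 to 600 and from 0 to 3330. The highest numbers of lower calls came from total counts, and no mutant was called in Un Gfp- without replicate 1 or 2. The difference of the enrichments, with 0 calls in the main test, gave 0 to 24 higher and 0 to 172 lower. With the replicate block, 365 were higher and 98 lower in Un Gfp- and 316 and 12 in In Gfp-, and the calls of the Mediator strains were unchanged (ssn2Δ 8.94 and 9.22, nut1Δ -1.37 and -0.54). The numbers were not taken to pair the samples, since deviations from the group means of same-numbered sorted and presorted libraries correlated at 0.239, -0.00197, and 0.290 uninduced and -0.0505, -0.0776, and 0.0599 induced, and not every library correlated best with its own number. Between the Un presort and In presort libraries, these correlations were 0.553, -0.597, and -0.616 for the same number. With another number they reached 0.190, 0.657, and 0.799. Deviations of presort libraries were thus correlated across cultures, for replicates 2 and 3 under unlike numbers. The mix of UPTAG and DNTAG reads also varied between these libraries, and its part in the correlations was not tested. The presort comparison and the difference of the enrichments did not model these correlations. Depth limits the sorted counts of nut1Δ, at 0 to 32 reads a library. Too few presort reads left 12 of the 14 strains without a test, and the cause of these low counts was not tested.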
